A study of Mus musculus with 48 samples.

Results

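The 12 cerebellum libraries of a mouse brain RNA-seq series were compared by genotype label, 6 labelled KO against 6 labelled WT, out of 48 libraries in all. KO mice were 129/Sv-Cyp2e1tm1Gonz/J, a strain with a targeted allele of Cyp2e1, and WT mice were 129S1/SvImJ. Each label held 3 female and 3 male libraries, and all mice were on normal chow and 16 weeks old. The labels name no treatment. Because the strains differ in more than the targeted allele, genotype and strain background cannot be told apart, and the series text calls the libraries biological replicates without saying whether regions share an animal. All 12 columns that carry the cerebellum code were used, with sex as a covariate.

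The cerebellar cortex is built in layers. Granule cells, the small glutamatergic neurons of the granular layer, send parallel fibres into the molecular layer, where they contact Purkinje cells, whose axons are the only output of the cortex. Bergmann glia span the molecular layer, while myelinated tracts and the deep nuclei lie beneath, next to the brainstem. Cyp2e1 is a cytochrome P450 best known in liver, where it oxidises ethanol and other small molecules.

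Library totals were 14.92 M to 25.86 M counts in KO-labelled and 15.07 M to 19.23 M in WT-labelled libraries, with 24159 to 26923 genes detected. Mitochondrially encoded transcripts took 3.02% to 3.74% of counts. Of 56748 genes in the table, 17825 passed the filter on low counts. The extraction text mentions liver lysates, so 10 liver genes were summed: they reached 0.528 to 1.41 CPM (counts scaled to a common library total) in KO-labelled and 0.520 to 0.992 CPM in WT-labelled libraries, with Fgb and Cyp3a11 at 0. All 12 libraries matched their sex labels by Xist and Ddx3y.

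The targeted gene went against the labels. Cyp2e1 (ENSMUSG00000025479, chr7:140343652-140354900, mm39) had a lowest, median and highest level of 3.12, 4.10 and 4.93 CPM in KO-labelled libraries, against 0.0665, 0.163 and 0.476 CPM in WT-labelled libraries. Every KO-labelled library was above every WT-labelled one. Counts pooled over libraries were 436 in KO-labelled and 20 in WT-labelled libraries, a depth-scaled ratio of 19.9 (95% interval 12.7 to 32.8, counting error only). The log2 difference was 4.30 ± 0.33 (SE, n = 6 each, adjusted p = 8.2e-05, edgeR). These are counts of the whole gene, which do not say which exons the reads came from, and KO and WT below name the libraries as labelled. Whether the labels were exchanged was not tested; if they were, every direction below would be turned round.

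Layer markers differed widely between libraries, within labels as well as between them. The 12 granule cell genes summed to 1220, 5480 and 8040 CPM (lowest, median, highest) in KO libraries, against 306, 699 and 5630 CPM in WT libraries. The 12 Purkinje cell genes summed to 1650, 5020 and 8120 CPM in KO libraries, against 579, 975 and 4550 CPM in WT libraries. The groups overlapped on both lists. Granule markers at 306, 515 and 311 CPM, in WT female library 1 and WT male libraries 2 and 3, were within the 215 to 4340 CPM of the hippocampal and prefrontal libraries. Their Purkinje sums of 579, 664 and 587 CPM were below the lowest of those regions, 723 CPM. The granule sums were above the 215 to 272 CPM of prefrontal libraries, and 306 and 311 CPM were near the ventral hippocampal median of 309 CPM. Some hippocampal libraries were themselves high in granule markers, so 4340 CPM is no usual level there. Cbln3, a granule gene, ran from 0.46 to 973 CPM in WT and 1.23 to 831 CPM in KO ventral hippocampal libraries. It reached 494 CPM in KO dorsal hippocampal libraries. Forebrain excitatory neuron genes summed to 255 to 1310 CPM in the cerebellum libraries, against 3070 to 7900 CPM in the other regions.

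A layer score was made from both lists, as the mean of their mean centred log2 CPM. It was 1.28, -0.05 and -0.48 in KO female libraries and 1.79, 1.19 and 1.79 in KO male libraries. In WT libraries it was -2.26, 0.47 and -0.92 in females and 1.13, -1.69 and -2.25 in males. KO libraries averaged 0.92 ± 0.96 and WT libraries -0.92 ± 1.43 (SD, n = 6 each), a difference of 1.84 with a two-sided exact permutation p of 0.0325 over 924 regroupings. The granule part differed by 2.00 (exact permutation p = 0.0346) and the Purkinje part alike, at 0.84 ± 0.89 in KO and -0.84 ± 1.26 in WT libraries (exact permutation p = 0.0303). Leaving out any 1 library kept the sign, with differences of 1.57 to 2.25. The exact p was between 0.0519 and 0.0671 without KO female library 1, KO male library 1 or 3, WT female library 1 or 3, or WT male library 2 or 3. In bulk tissue, fewer cells of a type and less RNA per cell cannot be told apart.

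**Figure D1:**
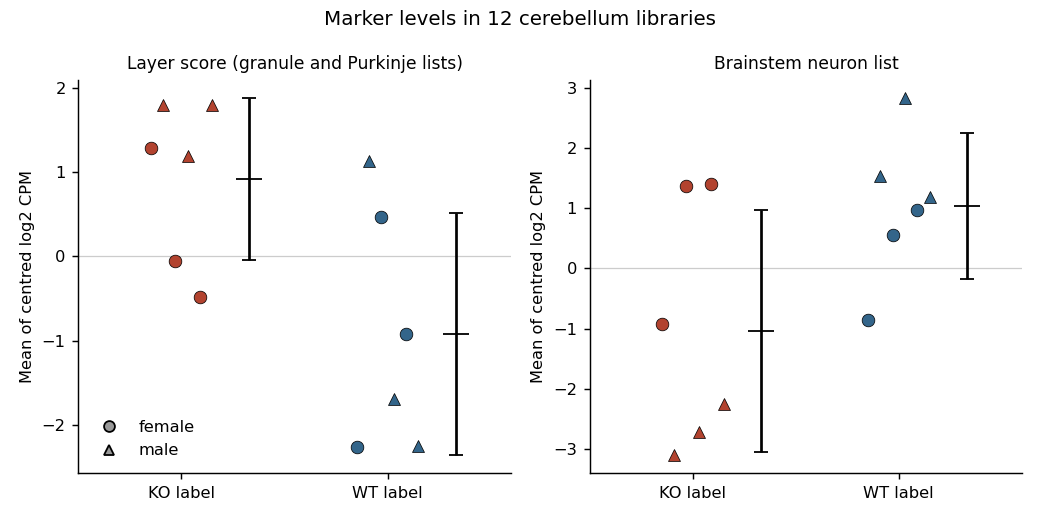
Layer score (left) and brainstem neuron list mean (right) in each cerebellum library, KO left of WT, as means of centred log2 CPM; circles are female and triangles male libraries, and the bar gives the mean and SD of 6. The layer score averages 0.92 in KO and -0.92 in WT libraries with overlap, and the 3 KO male libraries are lowest for brainstem genes.

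Genes of a brainstem neuron list ran partly against the layer score and differed by sex. The list is not confined to brainstem, as it summed to 22.4 to 361 CPM in the hippocampal and prefrontal libraries. The 14 brainstem neuron genes, such as Slc17a6, a vesicular glutamate transporter of subcortical neurons, summed to 116 to 947 CPM in KO and 611 to 1400 CPM in WT libraries. Their mean centred level was -1.04 ± 2.02 in KO and 1.04 ± 1.21 in WT libraries (exact permutation p = 0.0671). It was -3.10, -2.72 and -2.26 in KO male libraries, below every other library, but 1.37 and 1.40 in KO female libraries 2 and 3. All 13 tested members had negative differences in the fit over both sexes (median -1.81 log2, none called), while the median was 0.29 within females and -4.59 within males. WT male library 1 also carried choroid plexus RNA, with the choroid and ependymal list at 1450 CPM against 30.3 to 60.2 CPM elsewhere. Hindbrain Hox genes, which mark tissue behind the cerebellum, summed to 6.80 CPM there and 13.9 CPM in WT male library 2, against 0 to 0.528 CPM in the other libraries. None of the 12 Hox genes passed the low-count filter. The thalamus list peaked at 515 CPM in WT female library 1, against 77.1 to 333 CPM elsewhere. What part tissue from outside the cerebellum has in the label differences was not tested.

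With sex as covariate, 11 of 17825 genes (0.0617%) were called between labels at an adjusted p below 0.05 (edgeR quasi-likelihood test, Benjamini-Hochberg over all genes tested). Of these, 7 (0.0393%) were higher and 4 (0.0224%) lower in KO libraries. Among the higher genes were Klhl8, Cyp2e1, Nudt9, Aff1, Ttll12 and the lncRNA Gm26881, and lower were Glo1, Dnah8 and the lncRNAs Gm10503 and Gm50240. A further 2326 genes had an adjusted p between 0.05 and 0.1, and 5813 an unadjusted p below 0.05, so the count turns on the model. DESeq2 called 2683 genes, a mean for each sex-by-label group called 1422, and 1 model over all 48 libraries called 6240. These shared 10, 11 and 11 of the 11 genes. Without KO female library 1 the count was 7.

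Genes were then sorted by whether they tracked the layer score at equal sex and label. The slope on the score was called for 5047 genes (28.3%), of which 2617 (14.7%) rose and 2430 (13.6%) fell with it. Leaving out the 24 score genes, whose slopes the score fixes, 5024 of 17801 tracked (28.2%). Gene and score come from the same libraries and share their tissue content and depth. Without the 3 WT libraries that scored below -1, 1477 genes tracked, 1343 of them among the 5047.

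Of the 5 genes with the smallest p for a rise with the score, the 24 score genes left out, Gdf10 and Homer3 are known from the molecular layer. Gdf10, a growth factor of Bergmann glia, rose by 1.22 log2 per unit of score (adjusted p = 6.53e-11). Crtam rose by 1.42, Homer3, a postsynaptic scaffold of Purkinje cell spines, by 1.11, the cGMP phosphodiesterase Pde5a by 0.88, and Shisa6, an AMPA receptor auxiliary protein, by 0.73 (adjusted p up to 1.15e-09). Homer3 stood at 48.3, 157 and 253 CPM (lowest, median, highest) in KO libraries, against 8.98, 24.2 and 140 CPM in WT libraries, so the labels overlapped. At equal score its label difference was 0.02 ± 0.10 log2, where it had been 1.46 ± 0.68 without the score.

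Falling genes had shallower slopes. The endosomal GTPase Rab9b fell by 0.38 log2 per unit (adjusted p = 1.06e-05), Khdrbs3, an RNA-binding splicing factor, by 0.37, Dcaf12l1 by 0.34, Ptgfrn by 0.26 and the microtubule-associated Wdr47 by 0.18 (adjusted p up to 9.59e-05). Rab9b was at 26.3, 43.0 and 76.5 CPM in KO libraries, against 36.0, 80.3 and 102 CPM in WT libraries.

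Label differences lined up with the slopes. Among the 2594 rising genes outside the score, the median label difference was 0.43 log2 and 98.5% were higher in KO libraries. Of the 2430 falling genes, with a median of -0.41 log2, 1.19% were higher. Genes that did not track, 12778 in number, had a median of 0.00 and 49.5% were higher in KO. With the score as covariate the medians were 0.00 for rising and -0.02 for falling genes. Over all genes, 1018 (5.71%) differed by more than 1 log2 without the score, among them 331 rising and 246 falling genes outside the score, and 320 (1.80%) with it. The biological coefficient of variation, read from the first entry of each fit's dispersion, was 0.114 with the score and 0.206 without it. Since the score itself differs between labels, the sign of these medians follows from the slopes.

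**Figure D2:**
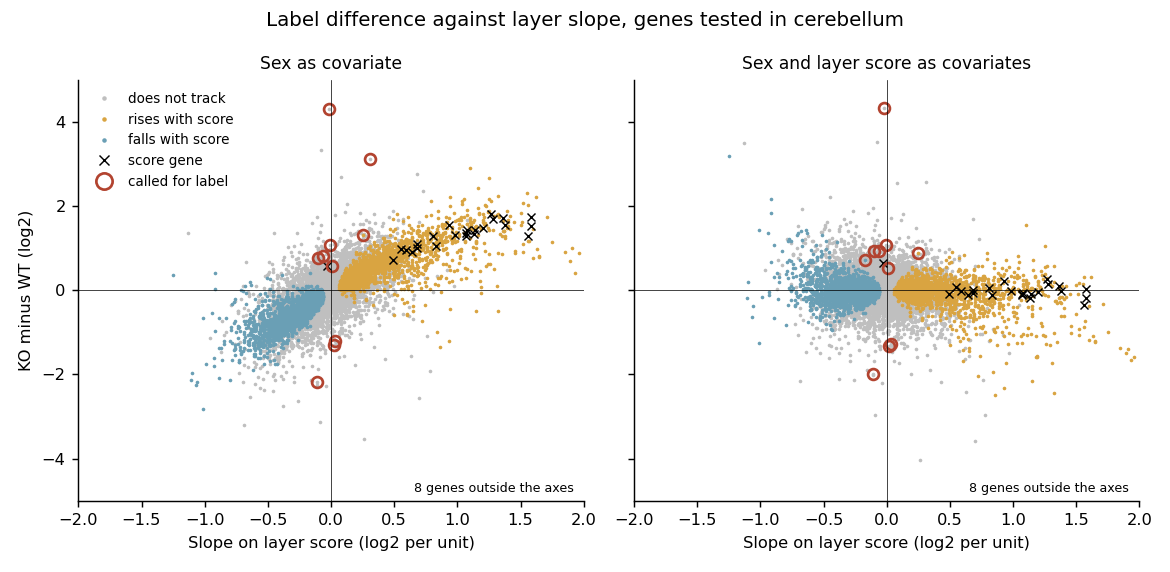
KO minus WT difference (log2) against the slope on the layer score (log2 per unit) for each tested gene, with sex (left) and with sex and layer score (right) as covariates; colours mark genes whose slope was called, crosses the score genes and open circles genes called for label. On the left the rising genes lie mostly above 0 (median 0.43) and the falling genes below (median -0.41), and on the right both medians are within 0.02 of 0.

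Set against the 36 libraries of the other regions, which the score did not use, 70.9% of the rising genes and 41.3% of the falling genes were higher in cerebellum, as were 54.8% of all genes. Those 36 include the hippocampal libraries high in granule markers.

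The single markers make up the score, so their slopes are a description. Cbln3, a granule cell partner of cerebellin, was at 211, 1170 and 1880 CPM in KO libraries, against 20.0, 103 and 1250 CPM in WT libraries. Zic1, a transcription factor of granule neurons, was at 159, 684 and 981 CPM in KO libraries, against 33.5, 82.7 and 646 CPM in WT libraries. Cbln1, which bridges parallel fibres to Purkinje cells, and the giant cadherin Fat2 had label differences of 1.33 ± 0.69 and 1.30 ± 0.90 log2 (adjusted p = 0.196 and 0.320). The whole granule list had 12 of 12 positive differences and none called (median 1.38 log2), and 11 of the 12 rose with the score, Barhl1 being the exception with a slope of -0.03.

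Purkinje genes behaved alike. Itpr1, the calcium release channel that Purkinje cells hold in quantity, was at 844, 2710 and 4500 CPM in KO libraries, against 282, 517 and 2630 CPM in WT libraries. Car8, a protein that binds it, differed by 1.69 ± 0.78 and the calcium buffer Calb1 by 1.56 ± 0.58 log2 (adjusted p = 0.155 and 0.11). All 12 Purkinje genes had positive differences, none was called, and all 12 rose with the score. The ranges of both labels overlapped for the 7 genes given here. At equal score the list medians were -0.07 log2 for granule and 0.03 for Purkinje genes.

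Promoter windows are shown for 1 marker of each layer and for Glo1, the lower protein-coding gene with the smallest p, to set side by side genes that rise with the score and one that does not. The windows run from 250 bases before to 50 bases after a RefSeq start (GRCm38.p6), 5′ to 3′ on the gene's strand, with AGGTCA or its reverse complement TGACCT in capitals. AGGTCA is the core site of orphan receptors such as Rora, a transcription factor of Purkinje cells. Pcp2, a Purkinje G-protein regulator (first of 4 windows, chr8:3625498-3625797, minus strand), holds it 12 bases before the start. Fat2 (chr11:55312208-55312507, minus strand) holds the reverse complement 31 bases before. The Glo1 window (chr17:30612610-30612909, minus strand) has neither.
Pcp2: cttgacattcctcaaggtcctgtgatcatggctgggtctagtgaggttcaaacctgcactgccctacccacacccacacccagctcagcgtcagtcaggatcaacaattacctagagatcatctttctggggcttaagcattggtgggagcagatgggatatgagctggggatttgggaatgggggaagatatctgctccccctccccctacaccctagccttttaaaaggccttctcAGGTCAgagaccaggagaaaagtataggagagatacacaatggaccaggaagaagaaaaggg
Fat2: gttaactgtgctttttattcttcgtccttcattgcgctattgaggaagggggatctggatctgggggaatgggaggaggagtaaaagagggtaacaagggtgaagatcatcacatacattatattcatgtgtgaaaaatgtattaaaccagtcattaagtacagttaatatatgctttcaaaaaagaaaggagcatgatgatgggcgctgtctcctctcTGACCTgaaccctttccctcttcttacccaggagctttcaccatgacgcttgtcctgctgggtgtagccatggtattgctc
Glo1: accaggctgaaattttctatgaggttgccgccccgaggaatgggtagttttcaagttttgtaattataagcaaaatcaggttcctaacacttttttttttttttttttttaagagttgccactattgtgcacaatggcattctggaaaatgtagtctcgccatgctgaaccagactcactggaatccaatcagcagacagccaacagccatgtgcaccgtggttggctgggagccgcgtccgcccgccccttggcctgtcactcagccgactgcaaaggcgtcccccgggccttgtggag
Of 12424 tested genes matched by symbol to a window, 14.9% held the letters in at least 1, against 16.2% of 1828 matched rising genes and 13.6% of 1841 matched falling genes. Over all 32851 windows the share was 16.3%. Of the matched layer markers, 4 of 10 granule and 1 of 4 Purkinje genes held it, as did 0 of 7 matched genes called for label, and Pcp2 and Fat2 were chosen for holding it. These shares describe letters and no binding.

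Other cells of the cortex were less uniform. Bergmann glia genes had 6 of 7 positive differences (median 0.92 log2, none called), and 6 of 7 rose with the score, among them A2m and Slc1a3, the glial glutamate transporter (slopes 0.75 and 0.50). Among 8 molecular layer and Golgi interneuron genes, 3 rose with the score (Kit, Tfap2a and Tfap2b), 2 fell (Nxph1 and Sorcs3) and the median label difference was 0.22 log2, with none called. Astrocyte genes had a median of -0.06 log2, 1 of 8 rising and 2 falling. Of 15 parallel fibre synapse genes, 10 rose with the score, 2 fell and none was called for label (median 0.36 log2). Slc17a7, the vesicular glutamate transporter of granule cells, had a slope of 1.05, while Cbln4 fell by 0.61 log2 per unit.

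Receptor subunits included both rising and falling genes, where 14.7% of all genes rose and 13.6% fell. Gabrd, the delta subunit of extrasynaptic GABA-A receptors on granule cells, rose by 1.19 log2 per unit of score. Gabra5, Gabra3, Gabrg3, Gabrb1 and Gabrg1 fell, and the other 6 of the 12 GABA-A genes did not track. Their label differences had a median of -0.05 log2 and ran from -1.48 for Gabra5 to 1.45 for Gabrd, with none called. Among 21 glutamate receptor genes 4 rose, including Grm4 (0.70) and Gria4 (0.33), and 8 fell, including Grm5, whose slope was -0.48, and Grin2b, whose slope was -0.33. Their median label difference was also -0.05 log2, with none called.

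No myelin gene was called for label or tracked the score, though all their label differences were negative. All 16 myelin genes had negative label differences, from -1.07 to -0.54 log2 (median -0.77, against 0.00 for all genes), and all 16 had an unadjusted p below 0.05, as had 5813 of all 17825 genes. The smallest adjusted p was 0.0928. Their slopes were between -0.18 and -0.05, none called. Opalin, an oligodendrocyte membrane protein, differed by -1.07 ± 0.21 log2, and Mag, a myelin adhesion protein, by -0.89 ± 0.23. The list summed to 4820 to 9010 CPM in KO libraries and 8020 to 17900 CPM in WT libraries, overlapping, with the highest sum in WT male library 2, where the Hox and brainstem sums were highest as well. The median was -0.51 log2 in females and -1.06 in males. It was -0.54 with the layer score, -0.52 with the brainstem mean and -0.40 with both as covariates, the 16 values being negative each time. The members with an unadjusted p below 0.05 were then 11, 13 and 1 of 16, and the smallest adjusted p was 0.908, 0.641 and 0.959. DESeq2 called Opalin and Mag with sex as covariate (adjusted p = 0.000746 and 0.00946) and neither with the layer score (adjusted p = 0.423 and 0.999).

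Oligodendrocyte precursor genes had 7 of 8 negative differences (median -0.64 log2), 3 falling and 1 rising with the score, and a median of -0.24 with the score as covariate. Microglial genes had 10 of 10 negative differences (median -0.40 log2), and 9 of 10 fell with the score, Cx3cr1 by 0.14 and Csf1r by 0.17 log2 per unit. At equal score their median was -0.11. Of 22 genes of cholesterol synthesis and uptake, 21 had negative values (median -0.49 log2), 7 fell with the score and 1 rose. Insig1, which holds the pathway back, differed by -0.64 ± 0.16 log2. The median at equal score was -0.22. With both the score and the brainstem mean as covariates the medians were -0.18 for precursor, -0.04 for microglial and -0.11 for cholesterol genes. No member of these 3 lists was called by edgeR, and the cholesterol median was -0.22 log2 in females and -0.72 in males. DESeq2 called Insig1 with sex as covariate (adjusted p = 0.0118) and not with the layer score (adjusted p = 0.999).

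Clock genes had 16 of 19 positive differences (median 0.30 log2, none called), 5 rising and 1 falling with the score. Cry1 and Per2, repressors of the clock, differed by 0.90 ± 0.23 and 0.81 ± 0.20 log2 (adjusted p = 0.0928 each). DESeq2 called both with sex as covariate (adjusted p = 0.00874 and 0.00766) and neither with the layer score (adjusted p = 0.999 each). The clock median was 0.01 in females and 0.56 in males. It was 0.11 with the layer score, 0.04 with the brainstem mean and 0.00 with both as covariates. The labels give no hour of collection, so its part was not tested. Glucocorticoid response genes had 11 of 15 positive differences (median 0.37 log2, none called), with 1 rising and 1 falling with the score, and a median of 0.15 at equal score and 0.23 with both covariates. Mt2, a metallothionein, differed by 0.77 ± 0.24 and Sgk1, a kinase induced by the hormone, by 0.55 ± 0.18 log2 (adjusted p = 0.0948 and 0.0979). Immediate early genes had a median of 0.06 log2 and 10 of 17 positive values.

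The remaining lists had no member called for label. Of 11 midbrain genes 10 had negative values (median -1.39 log2, -0.05 at equal score) and 6 fell with the score. Striatal genes had a median of -0.48 log2, 5 of 8 falling and 2 rising. Thalamic genes had -0.10, hypothalamic genes -0.58 and forebrain excitatory genes 0.01 log2. Vascular genes, with -0.05 log2, red blood cell genes, with 0.10, and meningeal genes, with 0.27, held no gene that tracked. The choroid and ependymal median was -0.44 log2, with Ttr at -3.56 ± 1.96 through the WT male library noted above. Mitochondrially encoded genes had -0.03 log2 and 1 of 13 falling. Ribosomal protein genes had 72 of 81 negative values, but with a median of -0.14 log2, and 25 fell. Ethanol and aldehyde enzymes had -0.19 log2, 3 of 11 falling, with Aldh2 at -0.22 ± 0.07, and glutathione and NRF2 genes -0.13, 5 of 20 falling and 2 rising. The single liver gene that passed the filter had 1.34 log2, at sums near the floor given above.

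**Figure D3:**
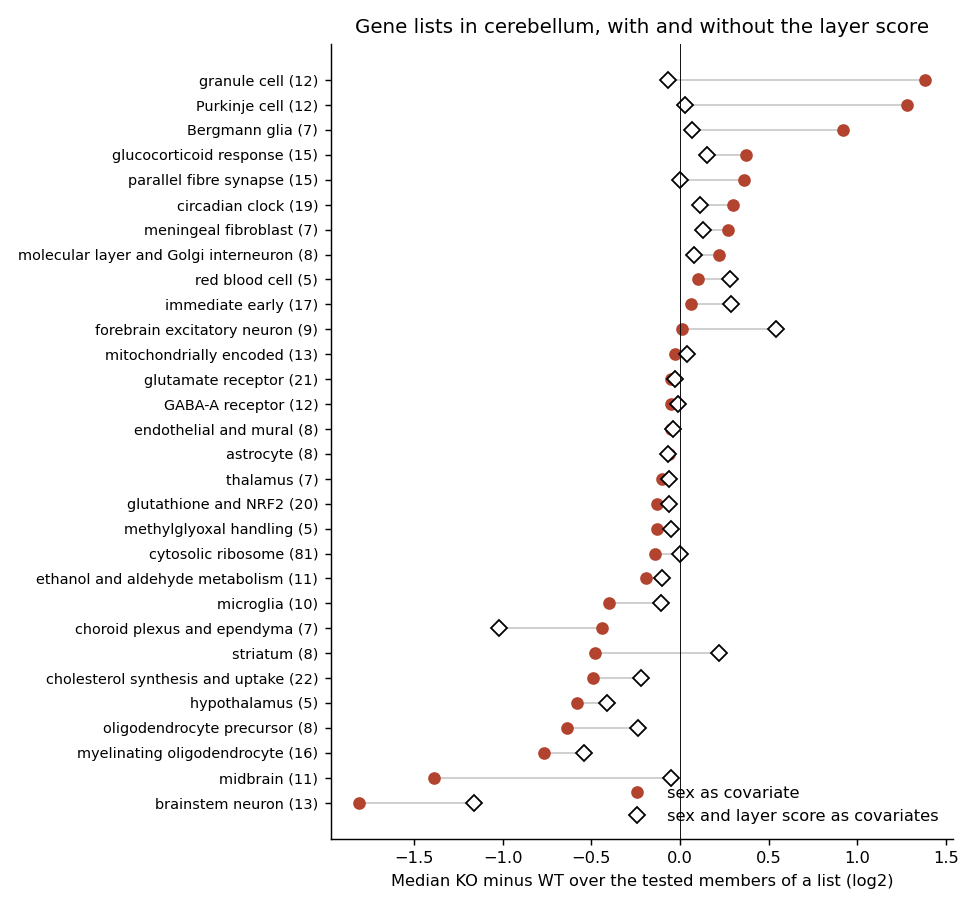
Median KO minus WT difference (log2) over the tested members of each gene list with at least 5 tested, with sex as covariate (filled circles) and with sex and layer score (open diamonds); the number of members is in brackets. Granule (1.38) and Purkinje (1.28) medians lie near 0 with the score, whereas the myelin median is -0.77 without it and -0.54 with it.

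Of the 11 genes called for label, 10 did not track the score, and neither did 12778 of all 17825 genes. Each of the 11 separated the labels completely, though call and separation use the same values. Complete separation was found for 147 of 17825 genes (0.825%) with KO above and 195 (1.09%) with KO below. With the layer score as covariate 11 genes (0.0617%) were called, 7 (0.0393%) higher and 4 (0.0224%) lower, of which 10 were the same. Hsd17b11 was gained and Gm26881 was not called (adjusted p = 0.424). Leaving out each library in turn, 7 of the 11 genes of the first fit kept their call throughout, among them Cyp2e1, Klhl8, Nudt9, Glo1, Dnah8 and Gm10503, and 5 of 11 did at equal score. With the score, 5 genes were called without WT male library 1 and 7 without KO female library 1.

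Called genes of chromosome 5 lay side by side (mm39). Between the start of Aff1 and the end of Nudt9, 373 kb, 5 genes were tested, and 4 were called in one fit or the other. Called genes set both ends of this stretch, so its count is no measure of clustering. Within 1 Mb of Nudt9, 3 of 14 other tested genes were called in either fit, against 0.0617% of all genes in each fit. Klhl8 (chr5:104009839-104059125), a substrate adaptor of cullin ubiquitin ligases, was at 69.2, 78.2 and 84.9 CPM in KO libraries, against 31.8, 36.9 and 41.4 CPM in WT libraries. It differed by 1.07 ± 0.08 log2 (adjusted p = 8.2e-05), with 1.05 in females and 1.09 in males. Nudt9 (chr5:104194172-104213245), an ADP-ribose pyrophosphatase, was at 70.8, 75.4 and 87.4 CPM in KO libraries, against 40.8, 43.5 and 47.5 CPM in WT libraries (0.81 ± 0.07 log2, adjusted p = 0.000174). Neither tracked the score, with slopes of -0.01 and -0.06.

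Aff1 (chr5:103840240-104003188), a scaffold of the super elongation complex, both tracked the score and differed at equal score. It was at 55.3, 82.4 and 88.9 CPM in KO libraries, against 20.4, 28.6 and 42.6 CPM in WT libraries, without overlap. Its label difference was 1.32 ± 0.17 log2 without the score (adjusted p = 0.0123) and 0.88 ± 0.10 with it (adjusted p = 0.00214), and its slope was 0.25 (adjusted p = 0.000226). The first call was lost without KO female library 1, WT female library 1 or KO male library 2 (adjusted p 0.0507 to 0.0648).

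Hsd17b11 (chr5:104137628-104169785), a short-chain dehydrogenase of lipid droplets, ran the other way and fell with the score by 0.17 log2 per unit. It was at 53.8, 63.8 and 93.2 CPM in KO libraries, against 43.3, 53.0 and 60.0 CPM in WT libraries, which overlap. Its difference was 0.40 ± 0.14 without the score (adjusted p = 0.0997) and 0.71 ± 0.11 with it (adjusted p = 0.0457). That call was lost in 10 of the 12 fits that left out a library (adjusted p up to 0.313). Gm43545, which overlaps Nudt9 on the other strand, separated the labels with 0.678 to 1.01 CPM in KO and 0.0668 to 0.297 CPM in WT libraries and was not called. The neighbours Ptpn13 and Sparcl1 differed by -0.07 ± 0.11 and -0.30 ± 0.08 log2, neither called.

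On chromosome 17, 4 of 7 tested genes over 387 kb were called, all lower in KO libraries, and called genes again set both ends. Within 1 Mb of Glo1, 3 of 27 other tested genes were called in either fit, against 0.0617% of all genes in each fit. Glo1 (chr17:30803910-30845845, minus strand), the glyoxalase that clears methylglyoxal, was at 77.2, 86.5 and 94.8 CPM in KO libraries, against 183, 210 and 258 CPM in WT libraries. It differed by -1.30 ± 0.08 log2 (adjusted p = 1.79e-05) and by -1.33 ± 0.10 at equal score, with a slope of 0.02. Of the 5 methylglyoxal genes it alone was called. Hagh, the second glyoxalase, differed by 0.16 ± 0.07, Akr1b3, an aldose reductase, by -0.25 ± 0.13, and Park7 by -0.12 ± 0.07 log2 (list median -0.13).

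Dnah8 (chr17:30843328-31096339, plus strand), an axonemal dynein heavy chain, overlaps the start of Glo1. It was at 0.471, 1.05 and 1.65 CPM in KO libraries, against 3.99, 4.72 and 5.71 CPM in WT libraries (-2.18 ± 0.25 log2, adjusted p = 0.00386). No source used here says that reads were counted by strand, so reads of Dnah8 and Glo1 in the overlap cannot be told apart. Without the 3 WT libraries of low score its adjusted p was 0.0998. Gm10503 (chr17:31139312-31182194) had 1 count over the 6 KO libraries and 1222 over the 6 WT libraries, a WT over KO ratio of 1340 (95% interval 240 to 53000, counting error only). It overlaps Glp1r and Umodl1, which were not called. Gm50240, which overlaps Btbd9, was at 3.63 to 6.07 CPM in KO and 8.92 to 15.4 CPM in WT libraries, and its call was lost without KO female library 1 (adjusted p = 0.0566) or without the 3 WT libraries of low score (adjusted p = 0.0673). At equal score its call was lost in 9 of the 12 fits that left out a library (adjusted p up to 0.842).

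The other called genes were spread over chromosomes. Ttll12 (chr15:83459291-83479358), of the tubulin tyrosine ligase-like family, was at 19.2, 20.7 and 22.9 CPM in KO libraries, against 9.66, 12.9 and 15.1 CPM in WT libraries (0.76 ± 0.11 log2, adjusted p = 0.0315). Its call was lost in 11 of the 12 fits that left out a library (adjusted p up to 0.121), the exception being WT male library 2. Gm26881 (chr4:43045966-43053259), which overlaps Fam214b, was at 0.740, 1.06 and 1.82 CPM in KO libraries, against 0.0529, 0.0656 and 0.382 CPM in WT libraries. Its call was lost in 7 of those 12 fits (adjusted p up to 0.0809).

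**Figure D4:**
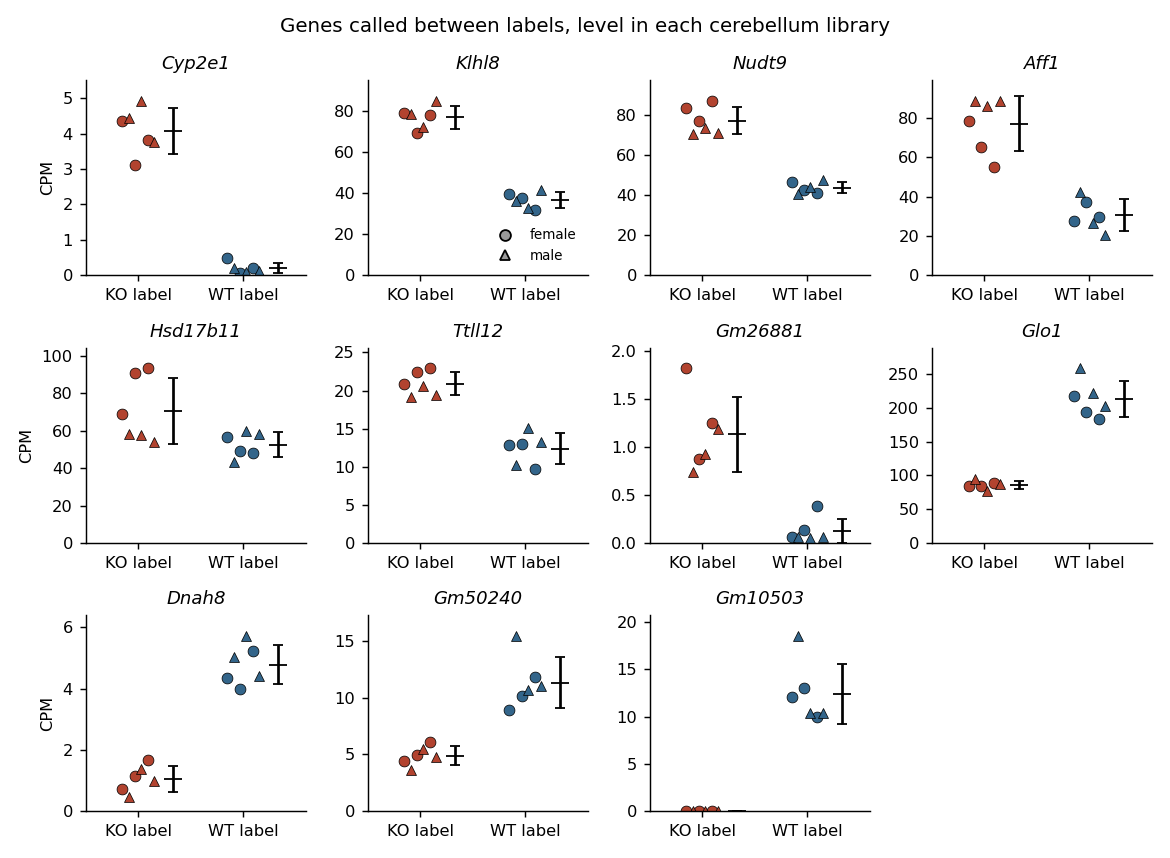
Level (CPM, axes from 0) of 11 genes called in either fit in each cerebellum library, KO left of WT; circles are female and triangles male libraries, and the bar gives the mean and SD of 6. The labels separate completely except for Hsd17b11, where KO libraries run from 53.8 to 93.2 CPM and WT libraries from 43.3 to 60.0 CPM.

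The 36 libraries of the other regions were fitted apart, 12 per region, where 70 genes (0.402%) were called in dorsal hippocampus, 22 (0.129%) in medial prefrontal cortex and 13 (0.0748%) in ventral hippocampus. In that order Klhl8 differed by 0.94, 0.94 and 0.97 log2, Nudt9 by 0.96, 0.93 and 0.98, and Glo1 by -1.22, -1.17 and -1.21, each called. Aff1 differed by 1.11, 1.07 and 1.00, Ttll12 by 0.99, 1.03 and 0.88, and Hsd17b11 by 0.92, 0.88 and 0.79, again called each time. Cyp2e1 differed by 4.92, 5.27 and 4.91, Gm50240 by -1.38, -1.57 and -1.48, and Gm26881 by 4.84, 2.87 and 3.63, and were called in all. Gm10503 was called in all as well, at up to 0.173 CPM in KO and at least 12.0 CPM in WT libraries. Dnah8 differed by -1.12, -1.03 and -1.12 and was called in dorsal hippocampus (adjusted p = 0.03, 0.19 and 0.443). Whether the cerebellar values differ from these was not tested.

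**Figure D5:**
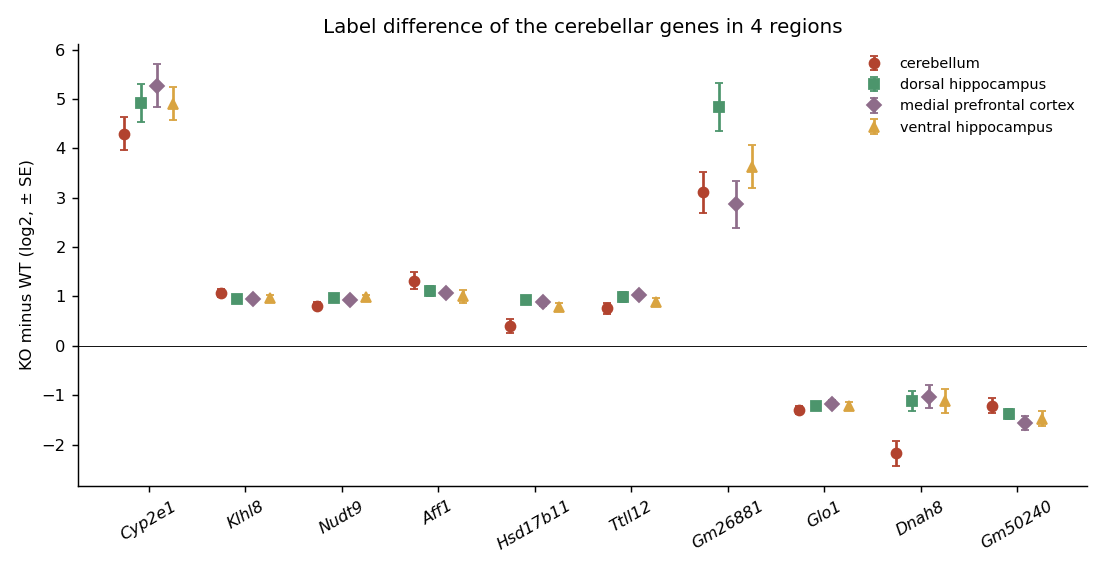
KO minus WT difference (log2, with SE, sex as covariate) in 4 regions for 10 genes called in either cerebellum fit. Gm10503 is left out, as its KO libraries are near 0 counts. The cerebellar Hsd17b11 point, 0.40, was not called in this fit, but only with the layer score. The 10 genes keep their sign, with Glo1 at -1.30 in cerebellum and -1.22 to -1.17 elsewhere, and Dnah8 at -2.18 in cerebellum and -1.12 to -1.03 elsewhere.

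Whether the label difference varied with sex was tested by an interaction term. No gene was called by edgeR (0 of 17825, 0%, smallest adjusted p 0.245), while 2412 had an unadjusted p below 0.05 and DESeq2 called 154. In the same fit 6 genes (0.0337%) were called between labels within females and 3606 (20.2%) within males. Several contents did not overlap between KO and WT male libraries. Among them were brainstem sums (116 to 277 CPM in KO and 611 to 1400 CPM in WT) and layer scores (1.19 to 1.79 and -2.25 to 1.13). Myelin sums did not overlap either (5150 to 8780 and 10100 to 17900 CPM). Purkinje, Bergmann glia, precursor, microglial, astrocyte, midbrain, hypothalamic and striatal sums separated as well, while granule, forebrain and vascular sums were among those that overlapped. With 3 libraries of each label, separation by chance is not rare. What part each has in the male count was not tested. Male libraries fitted alone gave 10 genes out of 16722, and female libraries fitted alone gave 2 out of 17147. The 4 genes with the smallest interaction p were Popdc3, Th, which makes dopamine and noradrenaline, Scara5, a ferritin receptor, and Cops9, of the COP9 signalosome. Th was at 1.41 to 11.3 CPM in KO and 5.45 to 28.7 CPM in WT libraries, and differed by 0.27 log2 in females and -3.37 in males. Popdc3 differed by 0.68 and -3.97, Scara5 by -0.36 and -3.95, and Cops9 by 0.19 and -0.52 log2 in females and males. All 11 genes called for label had the same sign in both sexes, which their complete separation of the labels fixes in advance.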

How the data were processed

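Poly(A) RNA of dissected brain regions was sequenced. The authors deposited raw counts per gene for 48 libraries; reads were aligned to mm39 with HISAT2 2.0.5, per the submitters' processing notes, and the counting program and strand setting are not given in the sources used here. The 12 cerebellum libraries were normalized with TMM in edgeR 4.0.16 (R 4.3.3, limma 3.58.1) and filtered with filterByExpr (minimum count 10, minimum total 15). Quasi-likelihood F tests were made on ~ sex + label, on ~ sex + label + layer score, for the label and the score, and on ~ sex * label, with Benjamini-Hochberg adjustment and a threshold of 0.05. Log2 CPM, from which the scores were made, used a prior count of 2. Label differences and slopes are log2 coefficients of the fits, which did not use that count. The SE of a log2 difference or slope was worked back from the F statistic of its test, as the absolute value over the root of F. CPM of single genes uses TMM-scaled totals, and summed CPM of lists uses raw totals. Scripts were tested on simulated data. Same-sex libraries of one label differed beyond counting noise (chi-square per degree of freedom at least 7.25). Alternatives included DESeq2 1.42.0, other filters, each library left out, and a replicate block. Libraries were grouped by title.

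Named genes were Cyp2e1, 4 markers per layer list with the highest mean CPM, called genes with a mean of at least 10 counts, members of lists with a called member, the 4 smallest interaction p and the 5 smallest slope p each way, with others chosen after their values were seen. The members and lists were chosen with earlier results of these data known. Promoter windows come from RefSeq (GRCm38.p6), whose coordinates differ from those of mm39. P-values measure the spread between these libraries. Some genes that the rule names are not reported here.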

Additional observations from a re-analysis of the deposited data

Results flagged for a closer look

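Of 74 groups of 6 libraries checked, 5 held a library farther from the nearest other than Dixon's 95% limit allows, and chance gives about 1 in 20. Cyp2e1 was at 3.12 CPM or more in KO libraries and at 0.476 CPM in WT female library 1, against 0.218 CPM in the next WT library. Gm10503 was at 0.0381 CPM, 1 count, in KO female library 2 and at 0 in the other KO libraries. In WT male library 1 Gm10503 was at 18.5 CPM, against 13.0 CPM in the next WT library. Gm26881 was at 0.382 CPM in WT female library 3, against 0.133 CPM in the next. Ttr, which the choroid plexus makes in quantity, was at 0.593 to 17.2 CPM in KO libraries and at 1360 CPM in WT male library 1, against 2.96 CPM in the next WT library. WT male library 1 was the one without which 5 genes were called at equal layer score.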

How the results depend on the processing

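Main counts were 11 genes for label, 5047 for the slope, 11 for label at equal score, 0 for sex by label and 10 called genes that do not track. DESeq2 gave 2683 for label (1216 higher, 1467 lower), 154 for sex by label and 1113 called genes that do not track. Group means gave 1422 (433 higher, 989 lower) and the 48-library model 6240. With no low-count filter, 27 genes were called at equal score and 35 for sex by label. Alternatives chosen after seeing the data gave 2 genes in females alone, 10 in males alone (1 higher and 9 lower, 3 shared with the main fit), 7 with the brainstem mean in place of the score, and a slope count of 1477 without the 3 WT libraries below -1. In each of these the cause was not tested. Leaving out 1 library gave 7 to 15 genes for label, 3675 to 5766 for the slope, 5 to 11 at equal score, 0 to 6 for sex by label and 7 to 14 not tracking. The score difference ranged over 1.57 to 2.25. Of the values of single genes under alternatives, 980 kept their side of the threshold, 89 lost and 29 gained a call, and 0 changed sign with a call. The deviations of same-numbered KO and WT libraries correlated with r from -0.46 to 0.412. Values of both signs cannot settle whether the numbers pair libraries. With the replicate block, 10 genes were called for label, 3905 for the slope, 8 at equal score and 4 for sex by label. Depth limits Gm26881 and Dnah8, at up to 1.82 and 5.71 CPM.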
